A study of Mus musculus with 12 samples.

Results

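The 10 titin-linked stress and sarcomere repair genes described here, which act at the elastic protein titin, the Z-disc and the ends of the thin filament, were followed across 12 mouse gastrocnemius libraries. They were taken by name from a list, which was chosen with earlier results of these data known. The list holds the muscle ankyrin repeat genes Ankrd1, Ankrd2 and Ankrd23 and the Xin repeat genes Xirp1 and Xirp2. It also holds the Z-disc and adhesion genes Flnc, Csrp3 and Nrap, the thin filament gene Lmod2, and Mustn1. All 10 were found by symbol among the 47643 gene identifiers of the count table, and all 10 were among the 6676 genes with enough reads to be tested. The gastrocnemius, a calf muscle, came from female C57BL/6J mice at postnatal week 11, of which 3 were labelled control and 3 c-myc over-expression. From every animal the left lower leg served as the uncontracted sample and the right as the contracted sample, so that each of the 4 groups held 3 libraries. Leg side and contraction therefore cannot be told apart. The labels give neither the promoter or vector behind the over-expression, nor the time from contraction to sampling, and the series title calls the contraction acute and of high intensity. Reads came from the 3′ ends of polyadenylated RNA, and levels are given as CPM, that is, reads scaled to a common library size with TMM factors, which adjust for each library's composition.

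Titin spans from the Z-disc to the middle of the sarcomere and acts as a spring, and its N2A segment binds the 3 muscle ankyrin repeat proteins, which are known to be induced by stretch, injury and exercise. Filamin C crosslinks actin at the Z-disc and recruits the Xin protein to small lesions of overloaded myofibrils, where damaged filamin is removed by a chaperone complex around BAG3. Muscle LIM protein (Csrp3) sits at the Z-disc, Nrap takes part in the assembly of new myofibrils, leiomodin 2 (Lmod2) lengthens thin filaments at their free ends, and Mustn1 encodes a small protein of muscle and skeletal tissue with a role in myoblast differentiation.

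The promoters of 9 of the 10 genes are in the RefSeq table used here (mouse build GRCm38.p6), and Xirp1 is not. The 250 bases before each listed start, 12 windows in all, were searched on both strands for 7 motifs of factors known in muscle or in load responses. Shown here are 30-base stretches around matches in genes called higher after contraction, averaged over genotypes (Ankrd1, Flnc, Nrap, Lmod2). The Lmod2 call held in 8 of 20 alternative settings of the test. Stretches of Ankrd23, Xirp2 and Csrp3, which did not pass in the averaged comparison, are also shown. Capitals mark the motif, sequences run 5′ to 3′ in the direction of the gene, and the position is that of the motif's first base relative to the start site.
Ankrd1, MCAT motif at -210, chr19:36120037-36120066, minus strand: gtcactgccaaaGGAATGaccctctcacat
Ankrd1, MCAT motif at -123, chr19:36119950-36119979, minus strand: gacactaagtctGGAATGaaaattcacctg
Flnc, MCAT motif at -104, chr6:29433140-29433169, plus strand: cgggccgggcggCATTCCtgggaggccggc
Flnc, CRE half-site at -82, chr6:29433162-29433191, plus strand: aggccggcgctcTGACGtggaccctggggc
Ankrd23, MCAT motif at -120, chr1:36535842-36535871, minus strand: cccagtgggccaCATTCCcagaacggtatt
Xirp2, AP-1 motif at -107, chr2:67445884-67445913, plus strand: aaaggagtggtTGACTCAagccccacctag
Xirp2, MEF2 box at -74, chr2:67445918-67445947, plus strand: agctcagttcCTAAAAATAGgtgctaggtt
Csrp3, CRE half-site at -31, chr7:48843685-48843714, minus strand: ctcagcccatgtTGACGttcaactcaccat
Nrap, CRE half-site at -113, chr19:56390134-56390163, minus strand: ttttgagaagcaCGTCAgcttgaaatacct
Nrap, CRE half-site at -69, chr19:56390090-56390119, minus strand: acgcatgcgtgcTGACGgagttgccaaaat
Lmod2, CRE half-site at -100, chr6:24597659-24597688, plus strand: caaatgtctagcTGACGtctgatgcctaaa

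The MCAT motif, CATTCC or its reverse GGAATG, is the letters bound by TEAD factors, and it was in 3 of the 12 windows, each of a different gene, beside 12.6% of 32851 promoters of the same length. The CRE half-site TGACG, part of the element bound by CREB and ATF factors, was in 4 of 12 windows, beside 17.8% of promoters. Those windows were of Flnc, Nrap, Lmod2 and Csrp3. The CArG box, bound by SRF, was in none of the 12 windows and in 1.47% of promoters. An AP-1 match (TGANTCA, 6.75% of promoters) and a MEF2 box (2.92%) were each in 1 window, that of Xirp2. The E-box CAGCTG was in 1 of 12 windows (13.0% of promoters), and TATAAA or TATATA in 3 of 12 (15.6%). Mustn1 held none of the 7 motifs, and Ankrd2 only the TATA letters. The Flnc and Ankrd23 matches and the Csrp3 half-site lie before the second start listed for each gene, and both Ankrd1 stretches lie within an exon of a longer Ankrd1 transcript in the GENCODE annotation. These matches describe letters and not bound sites.

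Totals were 1371732 to 1643216 reads per library. The label check came first: Myc, the over-expressed gene, had 0, 1 and 0 reads in the uncontracted control legs and 11, 9 and 9 in the uncontracted legs labelled c-myc over-expression. In contracted legs numbered 1, 2 and 3, Myc had 1, 10 and 59 reads in controls and 32, 0 and 2 in the over-expression group. In the 4 contracted libraries numbered 2 and 3, Myc reads were thus higher in control than in the over-expression group, against the genotype labels. For the control legs, a rise of Myc with contraction and a mix-up of labels cannot be told apart. The log2 changes with contraction, averaged over genotypes, of the 10 genes and of the other genes called below are also given without these 4. Which legs share an animal is uncertain for the animals numbered 2 and 3 as well, so counts, ratios and blocks by animal below follow the titles alone. Swapping genotypes among contracted legs leaves their mean over all 6 libraries the same, so the comparison of legs averaged over genotypes is given first. The tissue label fitted its markers: 12 fast fibre genes summed to 158600 to 207000 CPM and 7 slow fibre genes to 1662 to 2610 CPM, whereas 7 heart markers summed to at most 6.19 CPM, with Nppb and Myl7 at no read.

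After contraction, 6 of the 10 genes rose and none fell: Ankrd1, Xirp1, Mustn1, Flnc, Lmod2 and Nrap passed an adjusted p of 0.05 in edgeR's quasi-likelihood test with Benjamini-Hochberg adjustment, averaged over genotypes, where 5.71% of all tested genes were called higher and 1.77% lower. Rises were 58.9-fold for Ankrd1, 14.1-fold for Xirp1, 6.50-fold for Mustn1 and 4.69-fold for Flnc. Ankrd2, Ankrd23, Xirp2 and Csrp3 did not pass. Without a low-count filter Ankrd2 and Csrp3 passed as well, 8 of the 10 in all, where 555 of 17871 genes were called higher. With 1 library left out, 5 to 9 of the 10 passed, and 350 to 723 of all tested genes. In bulk muscle a change in the number of cells that express a gene and in the RNA per cell cannot be told apart. The median log2 change of the 10 genes, chosen with earlier results of these data known, was 0.84, beside -0.0034 over the 6676 genes tested. All 6 contracted libraries lay above all 6 uncontracted ones for 5 of the 10 genes (Ankrd1, Xirp1, Mustn1, Flnc and Nrap) and for 2.95% of all genes. Within genotypes, 4 of the 10 passed in control, where 2.38% of genes were called higher, and 6 of 10 in the c-myc group, where 3.45% were. Without the 4 libraries whose Myc reads go against their labels, the same 4 genes, Ankrd1, Xirp1, Mustn1 and Flnc, passed in the averaged comparison (1.32% of genes called higher), in control (0.879%) and in the c-myc group (0.769%).

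**Figure D1:**
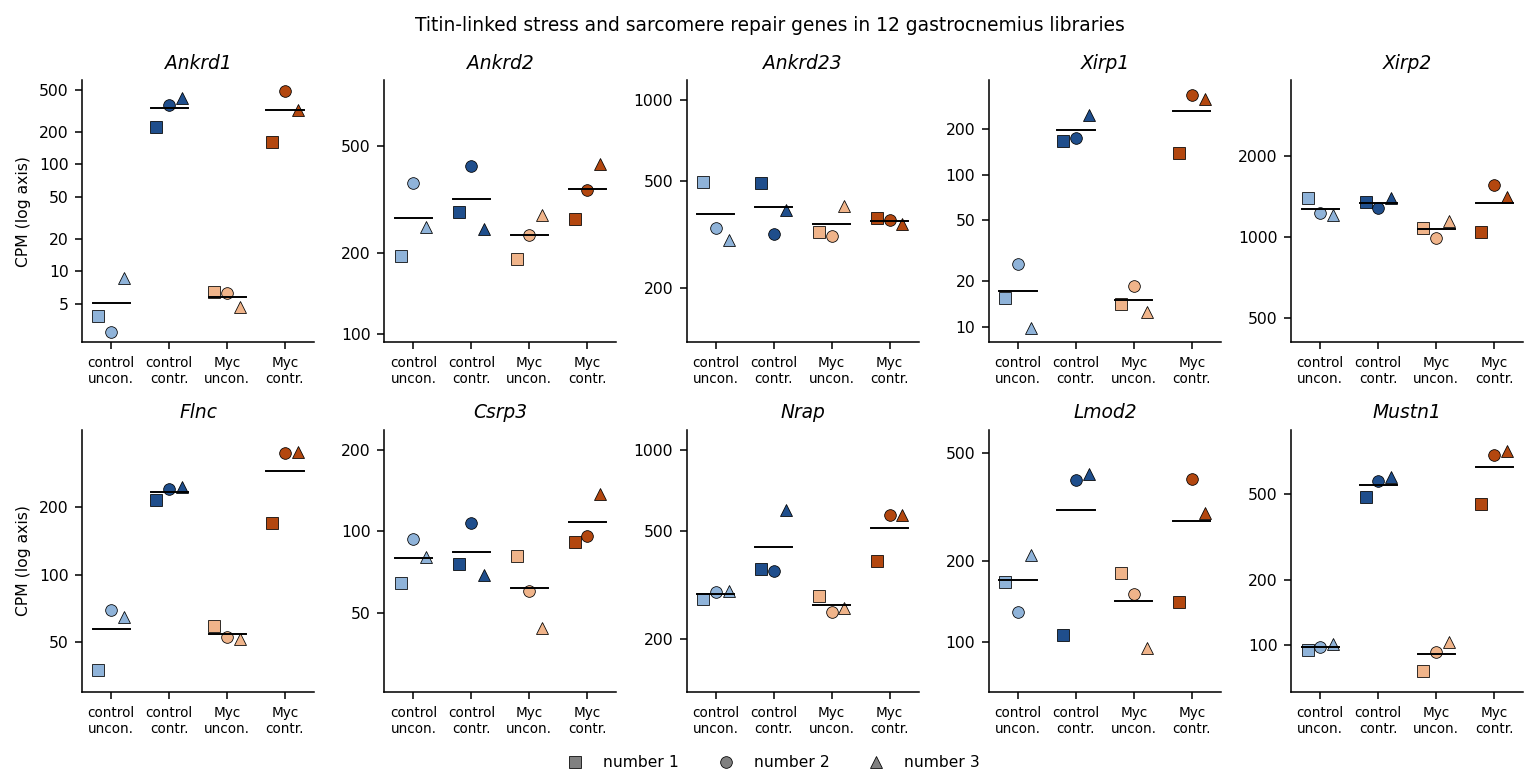
Level of each of the 10 genes in every library, in CPM on a log axis, by genotype and leg (uncon., uncontracted; contr., contracted); symbols give the number in the library title and bars the mean of 3 libraries. Ankrd1, Xirp1, Flnc, Nrap and Mustn1 show no overlap between legs, and Ankrd1 moves from at most 8.67 CPM to at least 163 CPM.

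**Figure D2:**
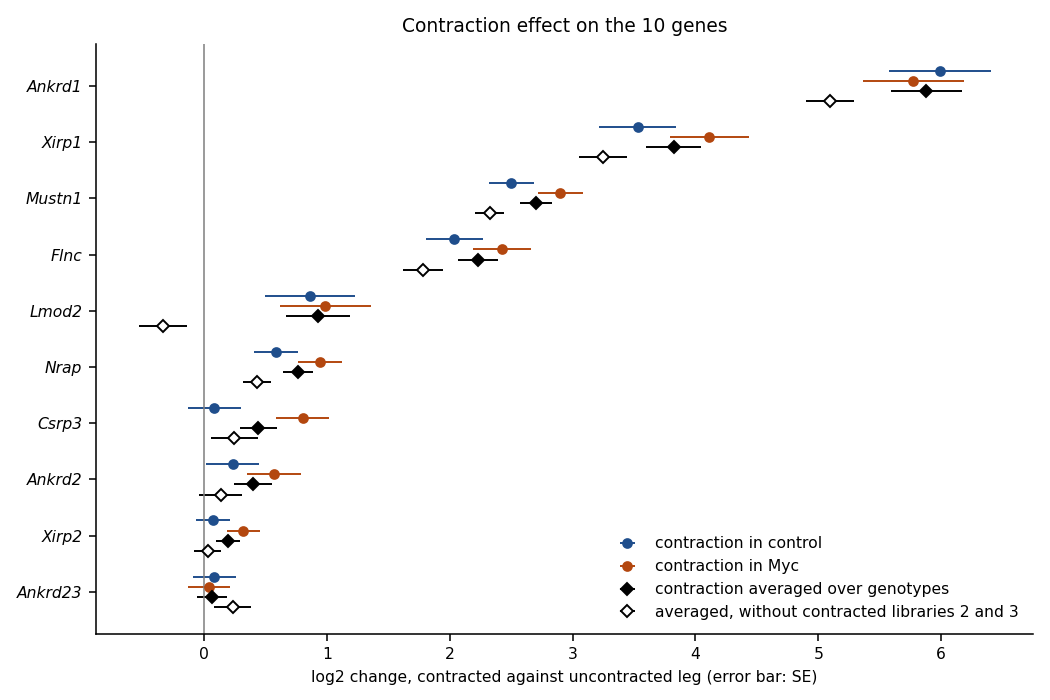
The log2 change of each gene between contracted and uncontracted legs with its SE, in control, in the c-myc group and averaged, and averaged again without the 4 contracted libraries numbered 2 and 3. Ankrd1 stays above 5 in each of the 4, and Lmod2 moves from 0.93 to -0.34 when the 4 libraries are left out.

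Among the muscle ankyrin repeat genes, Ankrd1 (ENSMUSG00000024803; chromosome 19, 36111961 to 36120099, minus strand, up to 10 exons in a transcript), which encodes a stress-induced protein of sarcomere and nucleus, changed most. It was at 3.87, 2.73 and 8.67 CPM in uncontracted control legs and at 6.38, 6.36 and 4.70 CPM in uncontracted c-myc legs. In contracted legs it reached 223, 358 and 418 CPM in control and 163, 489 and 324 CPM in the c-myc group. Every contracted library stood far above every uncontracted one, and the right leg exceeded the left in 6 of 6 animals, by 25.5 to 131 times. The 6 uncontracted libraries held 50 Ankrd1 reads in all and the 6 contracted ones 3051, so the fold rests on a low starting count. The averaged log2 change was 5.88 (SE 0.29, adjusted p = 1.147e-11 by edgeR's quasi-likelihood test with Benjamini-Hochberg adjustment, n = 6 and 6 libraries). Without the 4 libraries numbered 2 and 3 it was 5.09 (SE 0.20).

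Ankrd2 (ENSMUSG00000025172; chromosome 19, 42036000 to 42045110, plus strand), whose protein is known to be most abundant in slow fibres, was at 195, 363 and 250 CPM in uncontracted control legs and 190, 234 and 277 CPM in uncontracted c-myc legs. Contracted legs had 283, 420 and 245 CPM in control and 266, 341 and 429 CPM in the c-myc group. The legs overlapped widely, although 5 of 6 animals were higher on the contracted side. Its averaged log2 change was 0.40 (SE 0.15, adjusted p = 0.1358, edgeR's quasi-likelihood test). With the animal given by the titles as a block, the same change, 0.40, had an SE of 0.092 and passed (adjusted p = 0.01404). The change in the c-myc group alone passed too (log2 change 0.55, adjusted p = 0.02413, against 0.57 and adjusted p = 0.1838 without the block). It was, without the block and without the 4 libraries numbered 2 and 3, 0.13 averaged (adjusted p = 0.9636) and 0.20 in the c-myc group (adjusted p = 0.9709). The contracted libraries with the most Ankrd2, control 2 and c-myc 3, were also those with the highest summed slow fibre markers, at 2492 and 2610 CPM against 1662 to 2065 CPM in the other 4, and the part of fibre type in the values was not tested. Of the 7 slow fibre genes none passed between legs in edgeR's test, none had an unadjusted p under 0.05 and none passed with DESeq2.

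Ankrd23 (ENSMUSG00000067653; chromosome 1, 36530188 to 36536883, minus strand), the third of the family, ranged from 300.4 to 494 CPM in uncontracted legs (median 328) and from 318 to 490 CPM in contracted legs (median 360.3). The ranges nearly coincided and 3 of 6 animals were higher on the contracted side. Its averaged log2 change was 0.06 (SE 0.12, 95% interval -0.19 to 0.31, adjusted p = 0.8404 in edgeR's quasi-likelihood test), so the interval runs from 0.875-fold to 1.24-fold. Control was at 0.08 and the c-myc group at 0.04, and the average without the 4 libraries numbered 2 and 3 was 0.23 (adjusted p = 0.8342). Its annotated exons overlap the gene model Gm42417 on the same strand, which had 1 read in the 12 libraries.

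Of the Xin repeat genes, Xirp1 (ENSMUSG00000079243; chromosome 9, 120013755 to 120023598, minus strand) encodes Xin, an actin-binding partner of filamin C that is known to appear at damaged myofibrils. It had 15.5, 25.9 and 9.91 CPM in uncontracted control legs and 14.0, 18.4 and 12.5 CPM in uncontracted c-myc legs. After contraction it had 166, 175 and 247 CPM in control and 140, 333 and 314 CPM in the c-myc group. The legs were apart in every animal, with ratios of 6.77 to 25.1. The averaged log2 change was 3.82 (SE 0.22, adjusted p = 1.729e-10, edgeR's quasi-likelihood test with Benjamini-Hochberg adjustment), and 3.25 without the 4 libraries that go against their labels. It was 3.53 (SE 0.32) in control and 4.11 (SE 0.32) in the c-myc group, an interaction of 0.58 with a 95% interval of -0.42 to 1.58. The annotation places Xirp1 over part of Cx3cr1, with no shared exon, and Cx3cr1 had 39 reads in all.

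Xirp2 (ENSMUSG00000027022; chromosome 2, 67446002 to 67526614, plus strand), which encodes the related repeat protein myomaxin, was at 998 to 1399 CPM in uncontracted legs (median 1178) and 1050 to 1563 CPM in contracted legs (median 1372). The legs overlapped, and 4 of 6 animals were higher after contraction. The log2 change was 0.07 in control and 0.32 in the c-myc group, and its average 0.19 (SE 0.096, adjusted p = 0.2575 in edgeR's quasi-likelihood test), so this pair of related genes differed: the 95% interval of Xirp1, 3.35 to 4.29, lies above that of Xirp2, -0.0040 to 0.39. The Xirp2 average was 0.03 without the 4 libraries numbered 2 and 3 (adjusted p = 0.9912).

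Flnc (ENSMUSG00000068699; chromosome 6, 29433256 to 29461883, plus strand, up to 48 exons) encodes filamin C, the muscle filamin. Its levels were 37.4, 69.5 and 64.4 CPM in uncontracted control legs and 58.7, 52.8 and 51.7 CPM in uncontracted c-myc legs. Contracted legs had 215, 241 and 247 CPM in control and 170.4, 350.0 and 355 CPM in the c-myc group. No contracted library reached down to the uncontracted range, and the ratio within animals was 2.90 to 6.87. The averaged log2 change was 2.23 (SE 0.16, adjusted p = 3.752e-09, edgeR's quasi-likelihood test with Benjamini-Hochberg adjustment), and 1.78 without the 4 libraries numbered 2 and 3. Control (2.04, SE 0.23) and the c-myc group (2.42, SE 0.23) each passed, and their difference, 0.39, had a 95% interval of -0.29 to 1.07. Without the 4 libraries the order of the groups turned, with control at 1.90 and the c-myc group at 1.66.

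The genes of chaperone-assisted filamin turnover gave 3 of 11 that rose and none that fell in the averaged comparison, with a median log2 change of 0.21. Of all tested genes, 5.71% were called higher there and 1.77% lower. The small heat shock gene Hspb8, a partner of BAG3, went from 616 to 983 CPM in uncontracted legs to 1958 to 3592 CPM in contracted legs, a log2 change of 1.80 (adjusted p = 1.8e-08 in edgeR's test). Hspb7, another small heat shock gene of muscle, rose by 1.32 on the log2 scale (adjusted p = 4.178e-08), and Bag3, the scaffold of the complex, by 0.68 (adjusted p = 0.0003372). Without the 4 libraries numbered 2 and 3, Hspb8 was at 1.51 and Hspb7 at 1.13, both still past the threshold, while Bag3 was at 0.37 and did not pass (adjusted p = 0.2842). Hspa8, the chaperone of the same complex, was at 0.25 (adjusted p = 0.1313).

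Csrp3 (ENSMUSG00000030470; chromosome 7, 48830398 to 48848033, minus strand) encodes muscle LIM protein, a Z-disc protein linked to mechanical sensing. Uncontracted legs had 64.4, 94.0 and 80.5 CPM in control and 81.0, 60.4 and 43.9 CPM in the c-myc group. Contracted legs had 75.8, 108 and 68.9 CPM in control and 91.5, 95.8 and 138 CPM in the c-myc group. Over the 12 libraries the legs overlapped, and 5 of 6 animals were higher on the contracted side. The averaged change was 0.44 on the log2 scale (SE 0.15, adjusted p = 0.08806 in edgeR's test) and did not pass, nor did that in control, at 0.08. The averaged change passed in 3 of 20 alternatives. These were the fit without a low-count filter (adjusted p = 0.01217) and those without c-myc uncontracted library 1 (0.03177) or c-myc contracted library 1 (0.04216). It was 0.25 without the 4 libraries numbered 2 and 3. In the c-myc group it was 0.80 (SE 0.22) and passed narrowly (adjusted p = 0.03829, edgeR's quasi-likelihood test). That call was lost with the animal as a block (0.80, adjusted p = 0.05236), and without the 4 libraries that go against their labels (0.57, adjusted p = 0.8214). It also failed on library totals alone (adjusted p = 0.05492) and when c-myc contracted library 2 (0.0523) or 3 (0.2691) or c-myc uncontracted library 2 (0.1462) or 3 (0.2119) was left out.

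Nrap (ENSMUSG00000049134; chromosome 19, 56320035 to 56390037, minus strand, up to 42 exons) encodes the nebulin-related anchoring protein. It was at 281, 299 and 300.4 CPM in uncontracted control legs and at 288, 252 and 261 CPM in uncontracted c-myc legs. Contracted legs had 364, 356 and 599 CPM in control and 389, 575.4 and 575.2 CPM in the c-myc group. The legs did not overlap, yet the lowest contracted library was only a little above the highest uncontracted one. Nrap rose by 0.76 on the log2 scale in the averaged comparison (SE 0.13, adjusted p = 0.0002478) and by 0.94 in the c-myc group (adjusted p = 0.001902, edgeR's quasi-likelihood test), while control, at 0.58, did not pass (adjusted p = 0.09343). The difference between genotypes, an interaction of 0.36, had a 95% interval of -0.16 to 0.88. Without the 4 libraries numbered 2 and 3 the averaged value was 0.43 and missed the threshold (adjusted p = 0.06675), as did that of the c-myc group, 0.56 (adjusted p = 0.1716). Leaving out control contracted library 3 alone brought the control value to 0.30, with the averaged one at 0.62 and still past the threshold.

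Lmod2 (ENSMUSG00000029683; chromosome 6, 24597762 to 24605414, plus strand) had uncontracted levels of 168, 129.5 and 211 CPM in control and 179.9, 150.0 and 94.8 CPM in the c-myc group. Contracted levels were 106, 397 and 420.3 CPM in control and 141, 402 and 301 CPM in the c-myc group. The contracted libraries numbered 1 lay within the uncontracted range, and the other 4, those that go against their genotype labels, lay above it. Its averaged log2 change was 0.93 (SE 0.26, adjusted p = 0.02999, edgeR's quasi-likelihood test), and without those 4 libraries it was -0.34 (SE 0.20, adjusted p = 0.7631). In neither genotype alone did it pass, at 0.86 (adjusted p = 0.2968) in control and 0.99 (adjusted p = 0.1698) in the c-myc group, both in edgeR's test. The call was also lost with the animal as a block (0.81, adjusted p = 0.07241), with DESeq2 (adjusted p = 0.189), on library totals alone (0.0506) and when any of 8 of the 12 libraries was left out (adjusted p up to 0.1082). An exact permutation test of the 6 against 6 libraries, without the pairing of legs, gave p = 0.0736, 2-sided. The smallest p such a test can give is 0.00216.

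Levels of Lmod2 followed those of Neb, the gene of nebulin, the giant thin filament protein, and of the nuclear RNA Malat1. Neb was at 3154, 4068, 3881 and 2588 CPM in the 4 contracted libraries with high Lmod2, and at 1754 and 1628 CPM in the contracted libraries numbered 1. Malat1 was at 454, 719, 619.6 and 319.6 CPM in the former and at 145 and 192 CPM in the latter. Per 100 Neb reads there were 6.45 to 9.92 Lmod2 reads in uncontracted legs and 6.06 to 12.6 in contracted legs. Of the contracted libraries numbered 1, that of control, at 6.06, lay just below the uncontracted range and that of the c-myc group, at 8.67, within it, whereas the other 4, at 10.3 to 12.6, lay above all uncontracted libraries. The ratio was higher on the contracted side in 5 of 6 animals. The part of this shared variation in the Lmod2 value was not tested. Among contracted libraries Ankrd1 was likewise lowest in the pair with the least Neb and Malat1, numbered 1, and highest in the pair with the most, control 3 and c-myc 2, as the plot of both genes against Neb shows.

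**Figure D3:**
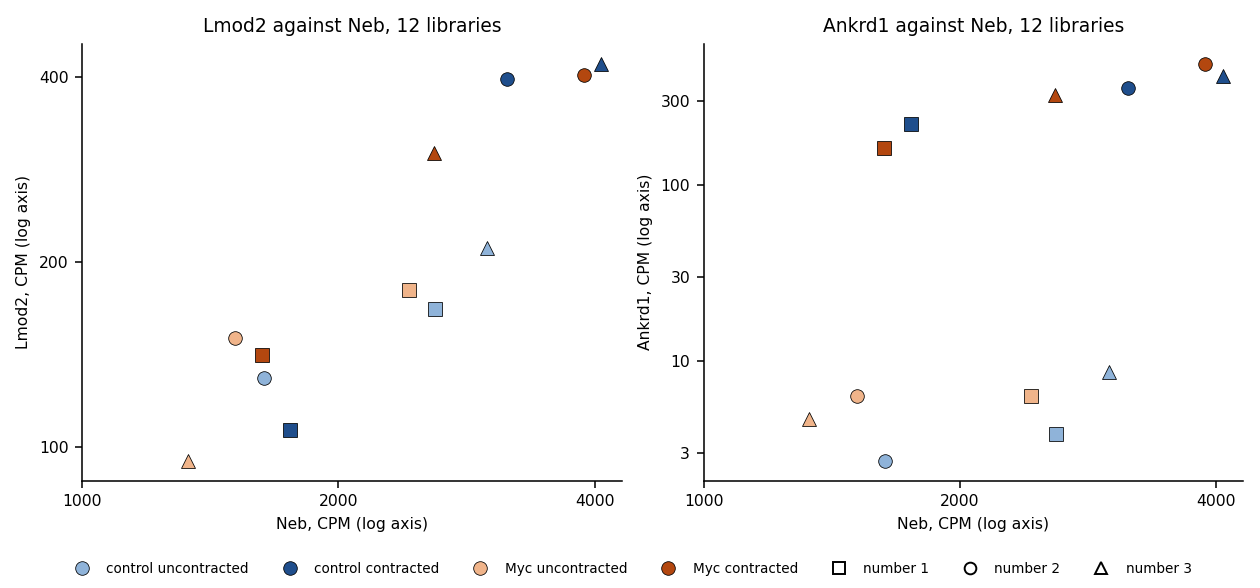
Level of Lmod2 (left) and Ankrd1 (right) against that of Neb in the 12 libraries, all in CPM on log axes, with colours for the groups and symbols for the library number. Lmod2 tends to be higher where Neb is higher in both legs, as does Ankrd1 among the contracted libraries, all of which lie above every uncontracted library in Ankrd1.

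Mustn1 (ENSMUSG00000042485; chromosome 14, 30879200 to 30881610, plus strand) had 94.7, 97.5 and 101 CPM in uncontracted control legs and 75.3, 92.8 and 103 CPM in uncontracted c-myc legs. Contracted legs had 485, 574 and 601 CPM in control and 453, 766 and 797 CPM in the c-myc group. Legs were apart in each of the 6 animals, by 5.13 to 8.25 times. The averaged log2 change was 2.70 (SE 0.13, adjusted p = 1.147e-11, edgeR's quasi-likelihood test with Benjamini-Hochberg adjustment), and 2.33 without the 4 libraries numbered 2 and 3.

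In exact permutation tests of 6 contracted against 6 uncontracted libraries, Ankrd1, Xirp1, Flnc, Nrap and Mustn1 each gave p = 0.00216, 2-sided. This is the smallest p such a test can give, and it follows from legs that do not overlap. The other 5 genes gave 0.0671 to 0.604. These permutations treated the libraries as independent and left out the pairing of legs by animal. Ankrd1, Xirp1, Flnc and Mustn1 passed in the averaged comparison and in each genotype under all 20 alternative settings run on each. In 5 of the 10 (Ankrd1, Xirp1, Flnc, Lmod2 and Mustn1) the contracted libraries numbered 1 of both genotypes were the lowest of the 6. The same order held in 12.7% of all tested genes and in 47.2% of the 381 genes called higher. These 5 were all called higher, whereas the 10 also hold genes that were not, so the share among the 10 and the 47.2% cover unlike sets. In Nrap, which also rose, control contracted library 2 was the lowest. Together the 10 genes took 0.223 to 0.266% of the reads of an uncontracted library and 0.323 to 0.523% of a contracted one.

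Outside the 10, the genes whose log2 CPM most resembled the genes' mean over the 12 libraries were Klhl40 (Pearson r = 0.99), Cavin1 (0.99), Arid5b (0.99), Atf3 (0.98) and Tuba1c (0.98). These r values are descriptions over 12 libraries that share the split by leg. Klhl40, which encodes a protein that stabilises leiomodin 3 and nebulin, was at 148 to 198 CPM in uncontracted and 576 to 1429 CPM in contracted legs. Cavin1, a caveola coat gene, was at 373 to 436 CPM and 612 to 829 CPM, and Atf3, a stress-induced transcription factor gene, at 0 to 3.72 CPM and 22.4 to 101 CPM. All 6 contracted libraries lay above all 6 uncontracted ones in these 3 genes, as in 2.95% of all tested genes. Their choice by likeness to a mean that itself splits by leg favours this, so it is no separate result.

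Other sarcomere lists were described for comparison with the 10 genes in the averaged comparison, in which 7.47% of all tested genes passed in either direction. Of 16 measured titin-related genes, 2 rose and 2 fell, with a median log2 change of 0.02. Trim63, the ubiquitin ligase MuRF1 that binds titin at the M-line, rose by 1.81 (318 to 792 CPM in contracted against 96.0 to 223 CPM in uncontracted legs), and the small heat shock gene Cryab by 0.93. Tcap, the titin cap at the Z-disc, fell by 0.41 on the log2 scale (adjusted p = 0.004561), from 7831 to 9552 CPM in uncontracted to 6025 to 7588 CPM in contracted legs, and Myom2, of the M-band, fell by 0.38 (adjusted p = 0.007251 in edgeR's test). Without the 4 libraries numbered 2 and 3, Trim63 was at 1.15 and Cryab at 0.81, both past the threshold, and Tcap (-0.41, adjusted p = 0.08303) and Myom2 (-0.20, adjusted p = 0.7409) did not pass.

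Of 15 measured Z-disc genes 1 rose and none fell, and 7 had an unadjusted p under 0.05, beside 20.2% of all tested genes. With 1 library left out, 0 to 4 of the 15 passed. Pdlim1, a LIM protein gene, rose by 0.47 (adjusted p = 0.04782 in edgeR's test). That call was lost with the animal as a block (adjusted p = 0.0612), with DESeq2 (0.1177) and in 10 of the 12 fits without a single library. Without the 4 libraries numbered 2 and 3 Pdlim1 was at 0.18. Des, at 0.27 (adjusted p = 0.05555), passed in 5 of 20 alternatives, DESeq2 among them (0.04673). Thin filament genes gave 3 of 17 that rose and none that fell. They were Klhl40 (2.54, adjusted p = 1.271e-09), its relative Klhl41 (0.35, adjusted p = 0.007374) and the actin disassembly gene Wdr1 (0.70, adjusted p = 0.03467), all in edgeR's test. Wdr1 did not pass with the animal as a block (adjusted p = 0.06067) or with DESeq2 (0.1718), and of these 3 Klhl40 alone passed without the 4 libraries, at 1.87, with Klhl41 at 0.27 and Wdr1 at 0.59. Lmod3, the close relative of Lmod2, was at 0.33 (adjusted p = 0.1968).

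None of 18 costamere and adhesion genes passed edgeR's quasi-likelihood test or DESeq2, and 3 had an unadjusted p under 0.05, with a median log2 change of -0.07. With 1 library left out, 0 to 2 of the 18 passed. Fermt2, at 0.59 (adjusted p = 0.06679 in edgeR's test), passed in 3 of 20 alternatives. In the list of mechanosensing by SRF and YAP, 3 of 10 measured genes rose and none fell. The growth factor gene Hbegf rose by 2.65 (adjusted p = 3.57e-10), the immediate early gene Egr1 by 3.95 (adjusted p = 5.131e-09) and Tead1, which encodes a factor that binds the MCAT letters, by 0.47 (adjusted p = 0.0209 in edgeR's test). Tead1 did not pass with DESeq2 (adjusted p = 0.07859) or without the 4 libraries (0.36, adjusted p = 0.662), where Hbegf, at 2.23, and Egr1, at 3.23, did. Egr1 was at 1.91 to 9.54 CPM in uncontracted and 41.2 to 158 CPM in contracted legs.

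**Figure D4:**
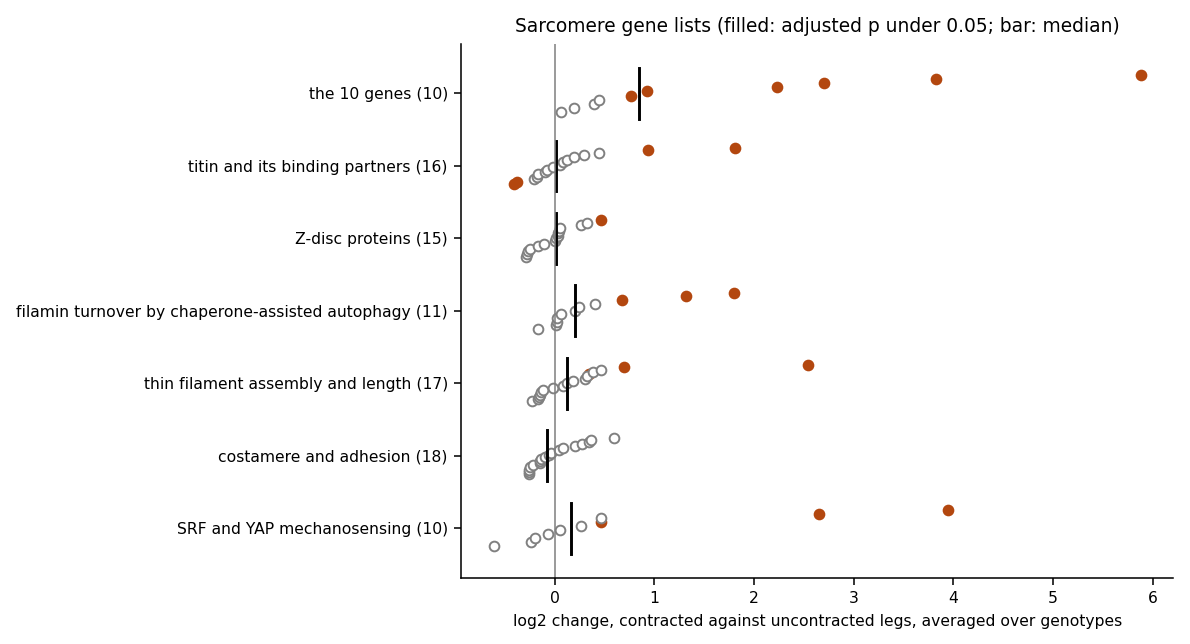
The log2 change between contracted and uncontracted legs, averaged over genotypes, of each measured gene of 7 lists, with the number of genes in brackets, filled points for genes that passed and a bar at the median. The 10 genes have a median of 0.84, and the medians of the other lists lie between -0.07 and 0.21.

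Markers of other cells also moved between legs, in a comparison where 5.71% of all tested genes were called higher and 1.77% lower. Summed neutrophil markers were at 0 to 3.72 CPM in uncontracted and 4.91 to 68.2 CPM in contracted legs (2 of 2 tested rose, Csf3r had no read). Erythrocyte markers were at 314 to 468 CPM and 404 to 1013 CPM (4 of 4 tested rose, 3 passed with DESeq2). Markers of developmental and regenerating muscle were at 17.2 to 23.5 CPM and 33.5 to 59.6 CPM (2 of 3 tested rose, of 8 listed). Of the macrophage markers 1 rose and 2 fell of 4 tested, with sums of 98.3 to 162 CPM and 86.6 to 123 CPM. Tendon markers had 1 of 3 that rose, with sums of 201 to 259.6 and 205 to 280.0 CPM, and smooth muscle markers 1 of 4 that fell, with sums of 125.0 to 188 and 94.4 to 147 CPM. In edgeR's test and in DESeq2 none of 4 fibroblast, 5 endothelial, 2 Schwann cell and 2 adipocyte genes passed, with 1 fibroblast gene and none of the others at an unadjusted p under 0.05. In the contracted libraries numbered 1 alone, control and c-myc, the sums were 58.1 and 19.6 CPM for neutrophil, 663 and 1013 CPM for erythrocyte and 45.4 and 33.5 CPM for regenerating muscle markers. The part of these cells in the results of the 10 genes was not tested.

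The effect of the c-myc label on the 10 genes was asked in each leg. In uncontracted legs, where Myc reads followed the labels, 0 of the 10 genes and 0% of all tested genes passed edgeR's quasi-likelihood test. Myc itself, at 29 reads against 1, did not pass (log2 difference 4.48, adjusted p = 0.7017), so the test missed even the over-expressed gene. There, 421 genes but none of the 10 had an unadjusted p under 0.05, and DESeq2 called 1 gene and none of the 10. The log2 differences of the 10 genes between c-myc and control ran from -0.35 (Csrp3, 95% interval -0.81 to 0.11) to 0.18 (Ankrd1, -1.26 to 1.63), with 9 of 10 below 0 and a median of -0.15, beside -0.0052 over all genes. The intervals were wide for Ankrd1, which had few reads in these legs, and narrowest for Xirp2, at -0.53 to 0.033.

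In contracted legs, again 0 of the 10 and 0% of all genes passed, 204 genes but none of the 10 had an unadjusted p under 0.05, and DESeq2 called none. Differences ran from -0.17 (Ankrd23) to 0.42 (Xirp1, 95% interval -0.08 to 0.93). For 4 of these 6 libraries the Myc reads go against the labels. Without them the Xirp1 value was -0.23 and rested on 1 library a group. The interaction, the contraction effect in the c-myc group minus that in control, passed for 0 of the 10 and 0% of all genes, and DESeq2 called none. Of 331 genes with an unadjusted p under 0.05 only Csrp3 was among the 10, at 0.72 on the log2 scale (95% interval 0.08 to 1.35, adjusted p = 0.936). The contraction effects of Ankrd1 in control, 5.99, and in the c-myc group, 5.77, differed by -0.22 (95% interval -1.76 to 1.33), and those of Mustn1, 5.66-fold and 7.46-fold, by 0.40 on the same log2 scale (-0.13 to 0.92). These intervals leave room for differences of more than 1.5-fold in 9 of the 10 genes, all but Ankrd23.

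**Figure D5:**
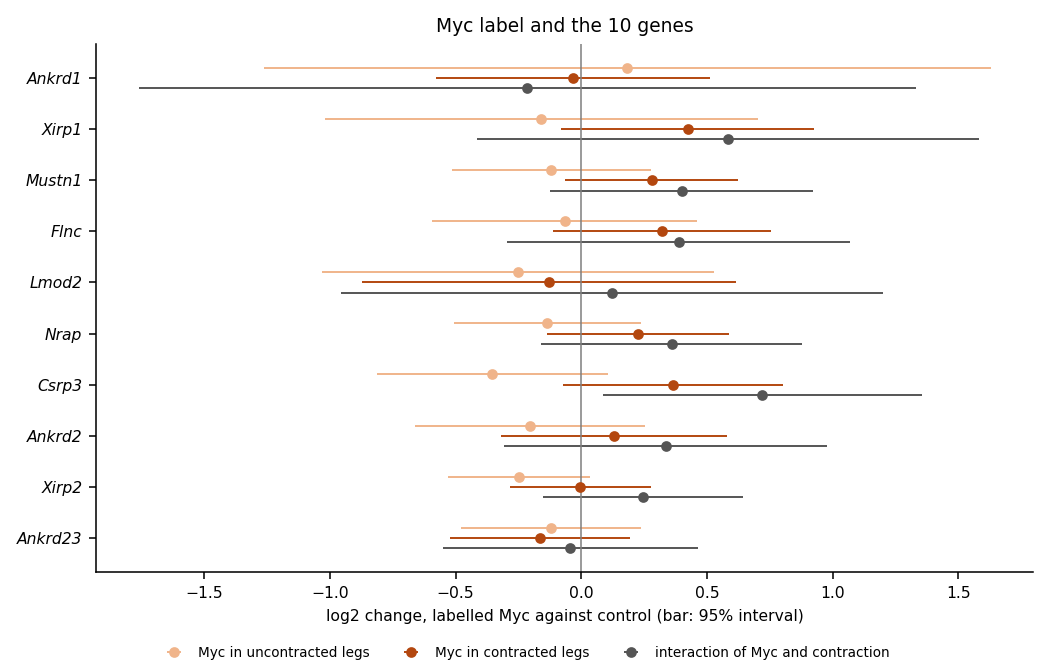
The log2 difference between c-myc over-expression and control in each leg, and the interaction of genotype and contraction (contraction effect in the c-myc group minus that in control), for the 10 genes, with 95% intervals from edgeR. Each interval includes 0 except the interaction of Csrp3, 0.08 to 1.35, whose adjusted p is 0.936.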

How the data were processed

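Whole-number read counts per gene, which the authors deposited as 1 table without normalization, were used for all 12 libraries. Per the labels' protocols, RNA was extracted with Trizol and libraries were made with the QuantSeq 3' mRNA-Seq kit. Per the submitters' processing notes, FastQC 0.11.5, STAR 2.5.2a, SAMtools, HTSeq 0.6.0 and build mm10 were used, while annotation release and strand setting are not given in the sources used here. Reads of overlapping or antisense genes therefore cannot be told apart. No column was left without a sample. Gene positions came from the GENCODE annotation of GRCm38.

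Totals were 1371732 to 1643216 reads, and reads carry no molecular identifiers. The fit used edgeR 4.0.16 under R 4.3.3. Low genes were removed with filterByExpr at a minimum of 10 reads, libraries were scaled by TMM, and 4 group means over 12 libraries were compared with the 2-sided quasi-likelihood F test. P-values were adjusted by Benjamini-Hochberg over 6676 genes with a threshold of 0.05. The comparisons were contraction in each genotype and averaged, c-myc in each leg, and the interaction. SEs are the log2 change divided by the square root of F. The steps were tested on simulated data. CPM use TMM-scaled totals, and log2 CPM for permutation tests and correlations a prior count of 2.

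The 10 genes, the other lists, the tests and the alternatives were chosen with earlier results of these data known. Besides the 10 genes, the text names up to 4 genes with the smallest p from each list, the 5 genes most correlated with the mean centred log2 CPM of the 10, Myc as a check of labels, and Neb and Malat1, which were chosen after their values were seen. Alternatives were RLE factors, library totals alone, DESeq2 1.42.0, no filter or a filter of 20 reads in 3 libraries, each library left out, the 4 contracted libraries numbered 2 and 3 left out, a leg term without genotype, the compared libraries alone, and a replicate block. Per the titles, legs with the same genotype and number come from the same animal, so numbers pair the legs. The Myc reads leave this pairing uncertain for the animals numbered 2 and 3. Deviations from group means correlated at -0.122 to 0.112 within the 6 animals.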

Additional observations from a re-analysis of the deposited data

Results flagged for a closer look

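Among 20 sets of 6 libraries checked, each gene in each leg, 1 library stood apart from the others. Mustn1 in c-myc uncontracted library 1 was at 75.28 CPM, below the other 5 uncontracted libraries, of which the next was at 92.8 CPM. The gap was 0.641 of the whole range, against a critical value of 0.625 in Dixon's test for 6 values, and chance gives such a gap in about 5% of sets. The contracted legs had at least 453 CPM. No gene of the 10 passed the test of a difference between genotypes in its contraction effect.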

How the results depend on the processing

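Over the alternatives run, 214 of 238 counts of passing genes stayed within 1.5 times the reported count. Without the 4 contracted libraries numbered 2 and 3, where each contracted group holds 1 library that is assumed to vary like the others, 107 genes passed in the averaged comparison, 67 in control, 59 in the c-myc group and 6 for c-myc in uncontracted legs. The reported counts are 499, 187, 260 and 0. Without a low-count filter, over 17871 genes, counts were 305 in control, 433 in the c-myc group, 24 for c-myc in uncontracted and 5 in contracted legs, and 18 for the interaction. Of the 10 genes, 6 then passed in control, with Nrap and Lmod2 added, and 8 in the c-myc group, with Ankrd2 and Lmod2 added. For c-myc in uncontracted legs DESeq2 gave 1 gene and the 6 libraries alone 2. With 1 library left out, counts ranged from 116 to 313 in control (without contracted library 3 and without contracted library 1), from 147 to 517 in the c-myc group (without contracted library 3 and without contracted library 1), from 0 to 2 for c-myc in uncontracted legs and from 0 to 4 for the interaction. The cause was not tested.

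Signs turned in log2 changes that had not passed, except Lmod2. Without the 4 libraries, Lmod2 was at -0.3384 averaged and -0.6781 in control, Csrp3 at -0.07585 in control, Xirp2 at -0.01985 in the c-myc group, Xirp1 at -0.2301 for c-myc in contracted legs and -0.06798 for the interaction, and Dmd, Lmod3 and Yap1 at -0.09634, -0.006592 and -0.08408 averaged. With 1 library left out, Ankrd23 ranged from -0.04095 to 0.1654 averaged, -0.0991 to 0.3152 in control and -0.03479 to 0.1649 in the c-myc group. In control, Ankrd2 ranged from -0.02537 to 0.4973 and Csrp3 from -0.1349 to 0.2118. Ankrd1 ranged from -0.09592 to 0.8132 for c-myc in uncontracted legs and from -0.8464 to 0.09973 for the interaction.

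With the animal as a replicate block, 443 genes passed averaged, 172 in control, 228 in the c-myc group and 0 for the interaction. Apart from Ankrd2, Csrp3, Lmod2, Pdlim1 and Wdr1, given above, the block changed no call among the genes named. With the number as a block, 0 genes passed for c-myc in either leg. Depth limits the low genes: Ankrd1 had 4 to 14 reads in uncontracted legs, so its contraction fold and c-myc difference are imprecise.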
